A study of Mus musculus with 18 samples.

Results

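Invariant natural killer T (iNKT) cells of the mouse thymus were compared between their last 2 sorted stages, stage 3 (S3) and stage 2 (S2), in mice whose T cells lack the Hippo pathway kinase MST1. The comparison used every array titled Mst1KO at these stages, 3 at S2 and 3 at S3, which is 6 of the 18 samples in the series. The mice carried a floxed Mst1 gene (Stk4) and Cre recombinase under the Cd4 promoter (Cd4CreMst1fl/fl), so deletion takes place in developing T cells that express Cd4 and not in the whole animal. The wild-type (WT) groups used beside them, 3 arrays at S2 and 3 at S3, were sorted by the same markers. All cells came from the thymus of strain C57BL/6, bound the PBS57-loaded CD1d tetramer, carried TCRb and lacked CD24. S2 cells carried CD44 without NK1.1, and S3 cells carried both. The labels also name a CD8 microbead step before sorting, whose direction for iNKT cells they leave unclear. They give 3 mice per genotype without tying replicate numbers to animals, so the p-values reflect only how much these samples vary, and that variation may be technical. RNA was amplified from nanogram amounts and hybridised to MoGene-2_0 arrays.

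iNKT cells are T cells with a semi-invariant receptor that recognise lipids presented by CD1d. In the thymus of C57BL/6 mice they expand after selection, gain CD44, and finally gain NK1.1 together with other natural killer (NK) receptors, granzymes and the transcription factor T-bet. The NK1.1-negative CD44-positive gate holds the precursors of these NKT1 cells as well as IL-4-producing NKT2 and IL-17-producing NKT17 cells. The Hippo kinases MST1 and MST2 act upstream of LATS kinases and, in T cells, also on adhesion and migration. The series title names cellular quiescence and terminal maturation as the questions of the study.

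Values are log2 expression, and a difference is S3 minus S2 ± SE with n = 3 arrays per stage. Levels are listed for the 3 S2 arrays and then the 3 S3 arrays, each in the order of the replicate numbers. A gene was called when the Benjamini-Hochberg adjusted p of limma, over the 13034 genes tested, was under 0.05, and only called genes are said to have risen, fallen or changed. The number of arrays limits the precision. The arrays are bulk sorts, in which fewer cells of a type and less RNA per cell cannot be told apart. Arrays of a stage correlated at r of 0.982 to 0.990 across probe sets, against 0.947 to 0.960 between the stages, and no array duplicated another.

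The stages of the knockout differed in 2240 genes, 17.2% of those tested, of which 1044 (8.01%) were higher and 1196 (9.18%) lower at S3. Each count of called genes in a list below covers only tested members and is to be read beside these shares. The S2 and S3 arrays did not overlap for 2209 of these 2240 genes, a separation that 36.3% of all tested genes showed (16.2% higher and 20.1% lower at S3). When quantile normalization was repeated on the values, the split moved to 880 higher and 1563 lower, so the balance between the directions depends on how the arrays were brought to a common scale. Among called genes that changed at least 2-fold, 212 were higher and 292 lower. The largest changes ran the other way: among those that changed at least 4-fold, 59 were higher and 31 lower, and among those that changed at least 8-fold, 19 were higher and only 1, the IL-6 receptor gene Il6ra, was lower.

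**Figure D1:**
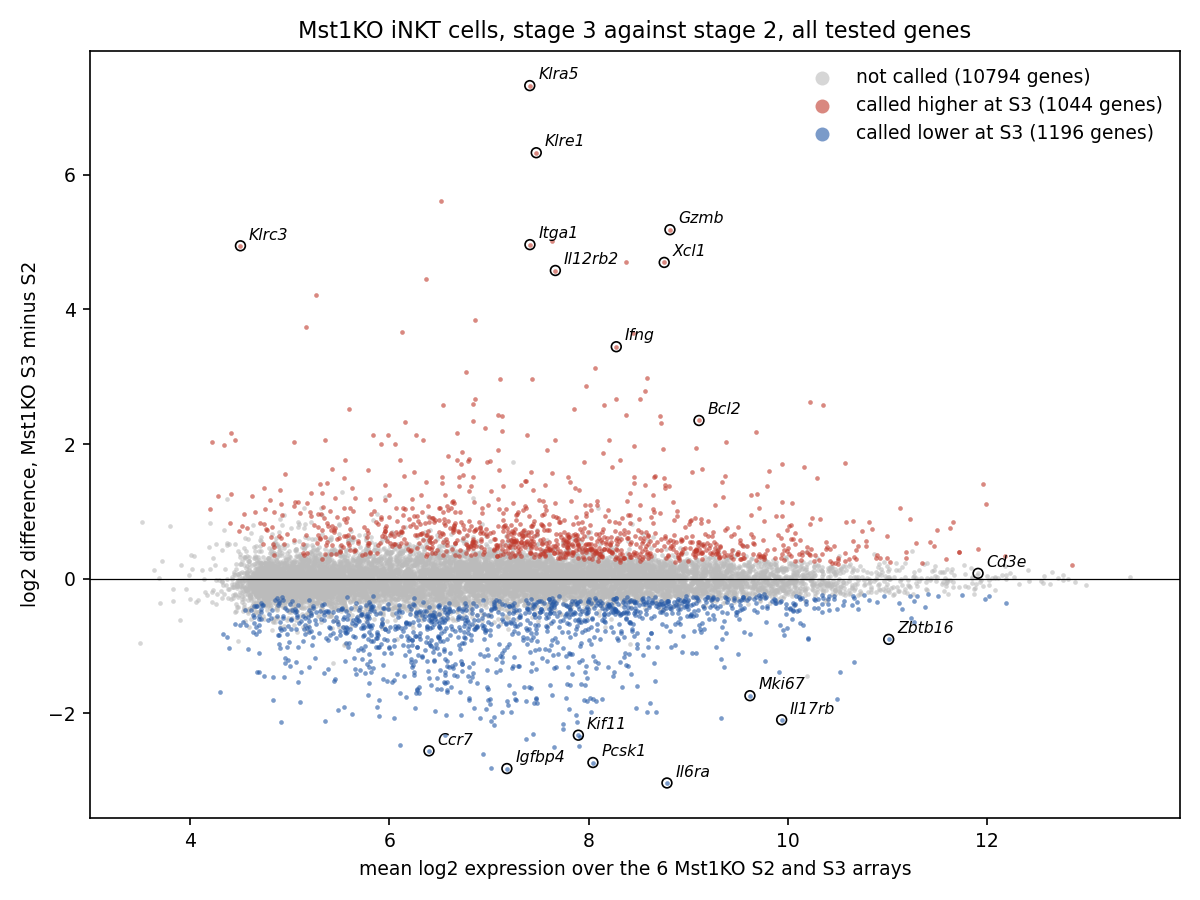
Each point is 1 of 13034 genes, placed by its mean log2 expression over the 6 Mst1KO S2 and S3 arrays (horizontal axis) and its log2 difference, S3 minus S2 (vertical axis); red points were called higher, blue points called lower, and circled genes are named. The points above 4 are nearly all NK receptor genes with Gzmb, Xcl1, Itga1 and Il12rb2, while Il6ra at -3.03 is the lowest called gene.

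Stk4, the targeted gene, read 7.54, 7.49 and 7.40 at S2 and 7.67, 7.74 and 7.56 at S3. Its difference of 0.18 ± 0.11 did not pass the test (adjusted p = 0.328), and WT S3 was 0.22 ± 0.11 above WT S2. The WT means were 7.83 ± 0.09 at S2 and 8.04 ± 0.21 at S3 (SD, n = 3), against 7.48 ± 0.07 and 7.66 ± 0.09 in the knockout, so the arrays showed only a small gap between genotypes. The labels do not place the probes relative to the deleted exons, so this reading does not check the deletion. The genes that define the gates are no finding: Klrb1c, which encodes NK1.1, differed by 3.84 ± 0.23 and Cd44 by 0.67 ± 0.14. The CD3 genes, which mark T cells, were bright at both stages, with Cd3e at means of 11.87 and 11.95.

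**Figure D2:**
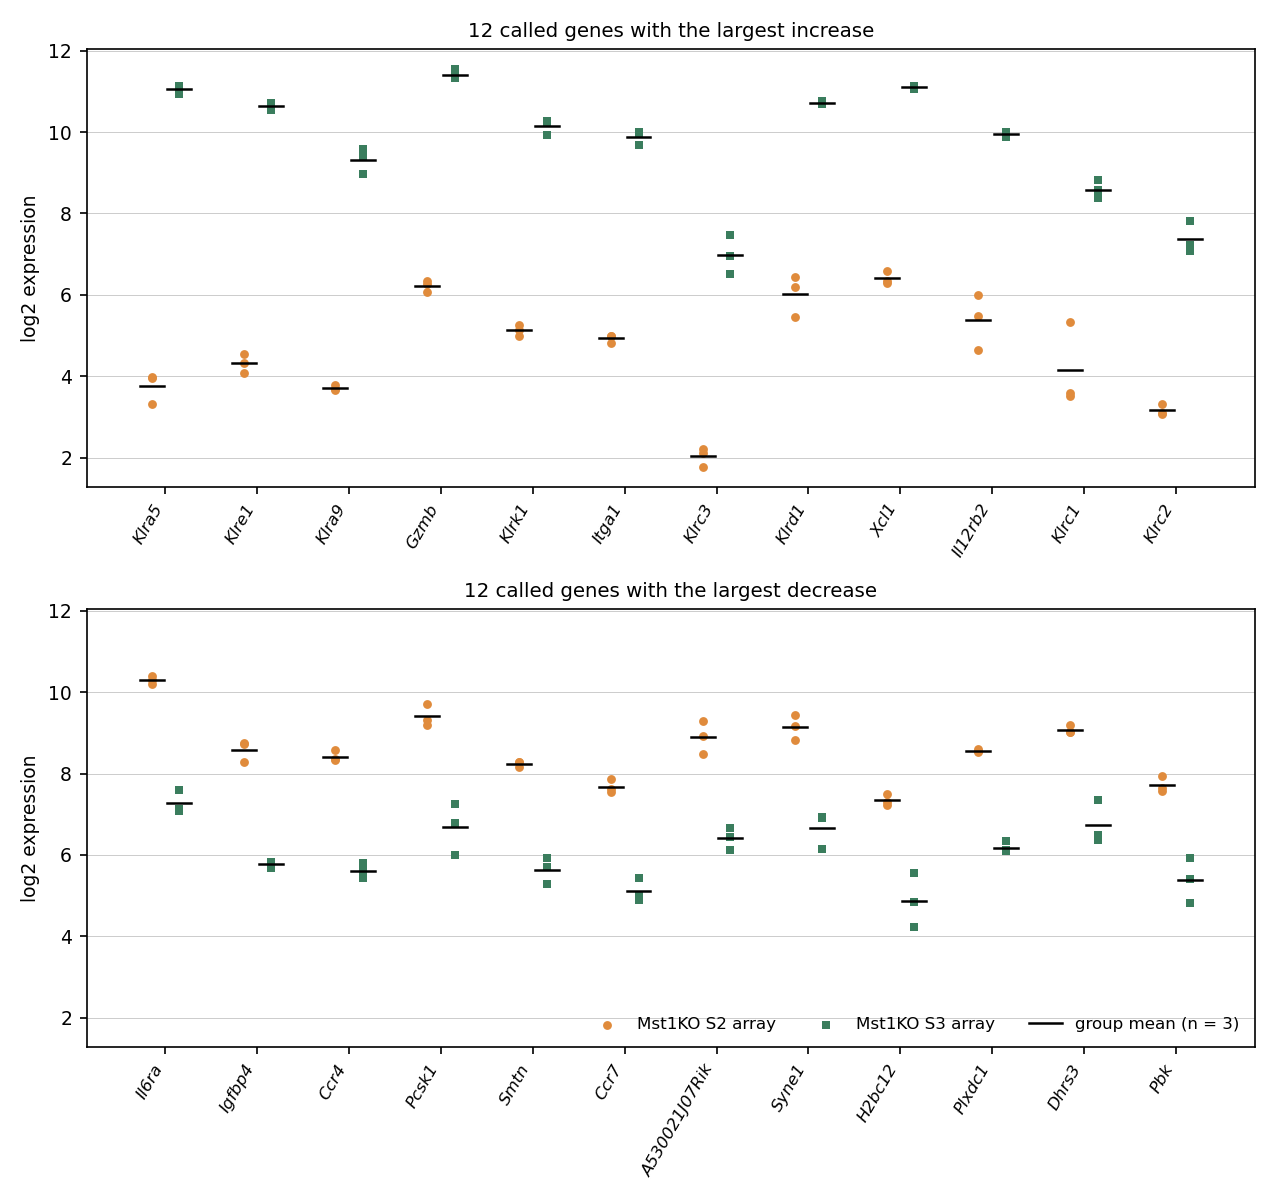
Log2 expression on each Mst1KO S2 array (circles) and S3 array (squares), with group means as bars (n = 3), for the 12 called genes with the largest increase (upper panel) and the 12 with the largest decrease (lower panel). The 2 stages do not overlap for any of these genes, and the spread of the S3 arrays is widest for genes such as H2bc12, Pcsk1 and Pbk that fell.

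NK receptor genes made the largest increases. The Ly49 receptors are lectin-like NK receptors, mostly for MHC class I. Klra5 read 3.98, 3.30 and 3.96 at S2 and 10.94, 11.14 and 11.13 at S3 (7.32 ± 0.60, adjusted p = 3.39e-07). It was at or below the array medians, 4.83 to 4.87, on all S2 arrays and among the bright genes on all S3 arrays. Klra9 rose by 5.62 ± 0.31 and Klra6 by 3.66 ± 0.41. Of 12 listed Ly49 genes, 5 had a probe set of their own, and these 3 passed the filter on low values. Near-identical Ly49 genes can also cross-hybridise, so the members cannot be told apart with certainty.

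The CD94 and NKG2 receptors bind MHC class I-like ligands and either inhibit or activate the cell. Of 8 listed, all with a probe set of their own, 7 passed the filter on low values. All 7 rose, with a median of 4.70 against -0.03 over all genes. Members dim at S2 could pass that filter through the S3 arrays alone, so this count and median favour genes that rose. Klre1, a lectin-like receptor that pairs with Klri chains, read 4.54, 4.08 and 4.31 at S2 and 10.73, 10.54 and 10.65 at S3 (6.33 ± 0.24, adjusted p = 1.56e-10). Klrk1, which encodes the activating receptor NKG2D, read 5.13, 5.26 and 4.99 and then 10.27, 10.22 and 9.93 (5.01 ± 0.26). Klrd1, the CD94 chain itself, rose by 4.70 ± 0.49, and its partners Klrc3, Klrc1 and Klrc2 by 4.94 ± 0.32, 4.44 ± 0.45 and 4.21 ± 0.25. Klri2 rose by 3.74 ± 0.40. For Klra5, Klra6, Klra9, Klre1, Klrc1, Klrc2, Klrc3 and Klri2 the mean S2 level lay below the array medians, close to background, so these differences are not exact ratios.

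The receptor genes that rose lie beside each other in the genome. By gene order in RefSeq (assembly GRCm38.p6, used only for names and neighbours), 25 tested genes lie on chromosome 6 from the NKR-P1 genes to the last Ly49 gene, the NK gene complex. Of these, 16 were called higher and 9 were not called, while 8.01% of all genes tested were called higher. Genes of the run that the filter removed are not counted. Receptor genes dim at S2 could pass the filter through the S3 arrays alone, so the count favours genes that rose. The 25 genes held 11 of the 59 genes that rose at least 4-fold in the whole comparison. Both the 16 and the 11 include Klrb1c (3.84 ± 0.23), the NK1.1 gene by which the stages were sorted, so its rise follows from the gate. The run is not uniform. Between Klrb1b (1.12 ± 0.24) and Klre1 lie 7 tested genes that were not called, Clec2i (0.42 ± 0.15) and Clec7a (0.79 ± 0.43) among them, beside the activation marker Cd69 (1.5 ± 0.23), the NKR-P1 ligand gene Clec2d (0.44 ± 0.13, a call lost in 4 of 6 fits without 1 array) and the autophagy gene Gabarapl1 (0.82 ± 0.16), which rose.

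NK-associated receptors encoded elsewhere also rose. Slamf7, a SLAM family receptor of NK cells, read 6.79, 5.98 and 7.09 at S2 and 10.34, 10.22 and 10.25 at S3 (3.65 ± 0.32). Its relative Cd244a, the 2B4 receptor, rose by 1.76 ± 0.25 and Cd160 by 1.03 ± 0.22. Ly6c2, a surface marker of mature NKT1 and memory T cells, rose from an already high mean of 11.25 to 12.66. Ncr1, the gene for the NK receptor NKp46, was not called, with S2 arrays at 4.50, 4.76 and 4.13 and S3 arrays at 5.05, 4.40 and 4.18, which overlap. Of 14 listed genes of this kind, 13 had a probe set of their own and 9 passed the filter on low values. Of these 9, 5 rose and 4 were not called, against 8.01% higher over all genes. Genes dim at S2 could pass that filter through the S3 arrays alone, so the count favours genes that rose.

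Of 11 tested adaptor genes that carry receptor signals, 3 rose and 8 were not called, against 8.01% higher over all genes. Fcer1g, the common Fc receptor gamma chain, read 6.44, 6.43 and 6.76 and then 9.29, 9.26 and 9.67 (2.86 ± 0.16). Tyrobp, the adaptor DAP12, rose by 2.34 ± 0.19 and Hcst, the NKG2D adaptor DAP10, by 0.39 ± 0.09. Myeloid cells also express Fcer1g and Tyrobp. Of 13 tested macrophage and dendritic cell markers 6 were called higher, with C1qb at 1.31 ± 0.23 and C1qa at 0.69 ± 0.18. The other 7 were not called, among them C1qc (S2 and S3 means of 5.49 and 5.58), Cst3 (10.09 and 10.05), Itgam (4.91 and 4.72) and H2-Aa (6.38 and 6.86). Between 2 and 6 were called higher when 1 array was left out. The summed linear level of the 15 measured markers was 1881 to 2162 on the S2 arrays and 2413 to 2790 on the S3 arrays. Siglech and Xcr1 were below the array median on every array of both stages. The NK cell marker Eomes was below it as well. The summed level of 9 NK and innate lymphoid markers, Fcer1g, Tyrobp and Cd7 among them, went from 2724 to 2850 up to 5214 to 5449. Cd7, with means of 11.26 at S2 and 12.01 at S3, was the brightest of the 9 and weighs most in this sum. Of the 7 of these markers that were tested, 5 were called higher, and Ncr1 and Kit were not called. The part of myeloid or NK cells in these results was not tested.

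Of 18 cytotoxic granule genes, 10 rose, 1 fell and 7 were not called, with a median of 0.89. Gzmb, which encodes granzyme B, read 6.07, 6.28 and 6.33 at S2 and 11.55, 11.32 and 11.35 at S3 (5.18 ± 0.48, adjusted p = 1.1e-06). The stages lay far apart, with little spread within either, and the SE also takes in the wider spread of the WT S2 arrays (SD 1.44). Prf1, the pore-forming perforin, read 5.92, 6.22 and 5.69 and then 8.97, 8.73 and 9.04 (2.97 ± 0.23). Fasl, the ligand of the death receptor Fas, rose by 3.13 ± 0.32, granzyme C (Gzmc) by 2.67 ± 0.26 and the granule membrane gene Nkg7 by 2.58 ± 0.23. The granzyme B inhibitor Serpinb9 rose by 1.38 ± 0.17. Granzyme A was not called, although its stages did not overlap: Gzma read 4.54, 4.95 and 5.16 and then 6.11, 5.98 and 6.40 (1.28 ± 0.44, adjusted p = 0.0529). In WT it differed by 3.69 ± 0.44, and the difference between the genotypes was -2.40 ± 0.62 (adjusted p = 0.12). Granzyme K (Gzmk, -0.19 ± 0.14) and granzyme M (Gzmm, 0.24 ± 0.15) were not called, and Rab27a, a GTPase for granule release, fell by 0.62 ± 0.10.

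The chemokine gene Xcl1, whose product attracts cross-presenting dendritic cells, read 6.6, 6.29 and 6.34 at S2 and 11.14, 11.11 and 11.06 at S3 (4.70 ± 0.34, adjusted p = 1.05e-07). In WT the same step was 2.84 ± 0.34, and the difference between the genotypes did not pass the test (1.86 ± 0.49, adjusted p = 0.13). Ccl5, a chemokine of effector T and NK cells, rose by 2.66 ± 0.24, the growth factor gene Pdgfb by 1.43 ± 0.19 and Tnf by 0.84 ± 0.19. Of 15 listed chemokine and growth factor genes with a probe set of their own, 11 passed the filter on low values, which favours genes that rose. The other 7 of these 11 were not called, among them Ccl3 (0.82 ± 0.35) and Ccl4 (0.12 ± 0.14). Over all genes 8.01% were called higher.

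Within the IL-12 and interferon-gamma axis, which drives type 1 responses, 7 of 12 genes rose and 2 fell. Ifng, the interferon-gamma gene, read 6.38, 6.53 and 6.76 at S2 and 10.14, 10.003 and 9.86 at S3 (3.44 ± 0.20, adjusted p = 9.42e-09). The inducible IL-12 receptor chain Il12rb2 read 5.49, 4.65 and 5.99 and then 9.98, 10.01 and 9.87 (4.58 ± 0.33), and Stat4, the factor that IL-12 activates, rose by 2.98 ± 0.29. The other IL-12 receptor chain moved the opposite way, as Il12rb1 fell by 0.77 ± 0.11. The interferon-gamma receptor chains also split. Ifngr1, the ligand-binding chain, rose from 9.12, 9.09 and 9.10 to 10.50, 10.50 and 10.46, while Ifngr2, the signalling chain, fell from 8.64, 8.29 and 8.78 to 6.81, 6.96 and 7.24 (-1.57 ± 0.16). Interferon-stimulated genes showed no such shift: 2 of 23 were higher and 2 lower, close to the shares over all genes.

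Among transcription factors of effector cells, 7 of 13 rose and 6 were not called. Tbx21, which encodes the NKT1 regulator T-bet, read 7.93, 8.18 and 8.63 at S2 and 9.82, 9.78 and 9.89 at S3 (1.58 ± 0.15). Bhlhe40, a cofactor of cytokine expression, rose by 1.31 ± 0.21, Runx3, a factor of cytotoxic lineages, by 0.83 ± 0.21, and Id2, an inhibitor of E proteins, by 0.48 ± 0.11. Of 19 progenitor and memory factors 8 fell and 2 rose. Id3, the sister gene of Id2, fell from 8.09, 8.06 and 8.43 to 6.79, 6.90 and 7.21 (-1.23 ± 0.13), so these paralogs moved in opposite directions. Sox4 fell by 1.42 ± 0.20, Runx1 by 0.68 ± 0.08, and Lef1 by 0.68 ± 0.12.

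Of 15 genes for receptors of the common gamma chain cytokines and for their signalling proteins (JAK, STAT and SOCS), 7 rose and 2 fell. The receptor chains among those called were Il2rb, Il21r and Il4ra, which rose, and Il9r, which fell (-0.88 ± 0.20). Il2rb, the chain shared by the IL-2 and IL-15 receptors, rose from 11.35, 11.44 and 11.50 to 12.48, 12.55 and 12.59 (1.11 ± 0.10). Il21r rose by 1.15 ± 0.17 and Il4ra, the IL-4 receptor chain, by 1.16 ± 0.18. Of 14 BCL2 family genes 5 rose, 1 fell and 8 were not called, against 8.01% higher and 9.18% lower over all genes. The survival gene Bcl2 read 7.60, 8.10 and 8.10 at S2 and 10.32, 10.39 and 10.14 at S3 (2.35 ± 0.20). Its relative Bcl2l1, which encodes BCL-XL, rose by 0.78 ± 0.11. The pro-death genes Bcl2l11, Pmaip1 and Bid were also called higher, at 0.59 ± 0.19, 0.47 ± 0.15 and 0.59 ± 0.19, and the pro-death gene Bad was called lower (-0.51 ± 0.15). Each of these 4 lost its call in 5 of the 6 fits that left out 1 array. With no filter, the stricter filter or either rescaling of the arrays, 2 genes of this family in place of 5 were called higher.

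The NKT2 and NKT17 genes were lower at S3. Of 15 NKT2 genes, 12 fell, 1 rose and 2 were not called, with a median of -1.1. Il6ra, a receptor chain for IL-6, read 10.21, 10.40 and 10.31 at S2 and 7.08, 7.12 and 7.60 at S3 (-3.03 ± 0.17, adjusted p = 5.79e-09), the largest decrease among called genes. Ccr4, a chemokine receptor of type 2 cells, fell from 8.57, 8.35 and 8.33 to 5.42, 5.62 and 5.80 (-2.81 ± 0.21). Il4 fell by 1.03 ± 0.12 and Il13 by 1.1 ± 0.18. Zbtb16, which encodes PLZF, the lineage factor of iNKT cells, read 11.43, 11.48 and 11.48 and then 10.36, 10.65 and 10.67 (-0.90 ± 0.12), so it remained far above the array medians. Gata3, the type 2 lineage factor, was called lower (-0.28 ± 0.08), a call lost in 2 of 6 fits without 1 array. The single gene of this list that rose was Izumo1r, the folate receptor family gene also known as FR4 (0.45 ± 0.14), which fell in WT (-0.49 ± 0.14). That difference between the genotypes passed the test (0.94 ± 0.19, adjusted p = 0.0482), and the rise in the knockout lost its call in 4 of 6 fits without 1 array.

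Of 19 NKT17 genes, 14 fell and 5 were not called, with a median of -1.17. Il17re, a receptor chain for IL-17C, fell from 9.44, 8.77 and 8.87 to 7.11, 7.20 and 7.41 (-1.79 ± 0.23). Il1r1, the IL-1 receptor, fell by 1.98 ± 0.29, the syndecan gene Sdc1 by 1.48 ± 0.23, Nrp1 by 1.28 ± 0.14 and the retinoid-related factor gene Rora by 0.87 ± 0.18. Il23r, the IL-23 receptor, stayed high on every S3 array: it read 11.24, 10.82 and 10.71 at S2 and 9.45, 9.65 and 9.32 at S3, and its difference of -1.45 ± 0.56 did not pass the test (adjusted p = 0.0923). The first S2 array was the highest of the 3 for 12 of the 14 genes that fell, and 11 were called without it. The gamma-delta T cell markers Blk, Cd163l1 and 5830411N06Rik were called lower too. Blk lost its call in 5 and 5830411N06Rik in 2 of 6 fits without 1 array, and 1 of the 3 was called without S2 replicate 1 or S3 replicate 3. Over the 4 measured gamma-delta markers the summed linear level was 1232 to 1733 at S2 and 728.9 to 776.9 at S3. Blk and 5830411N06Rik belong to both lists, and the part of gamma-delta cells in the result was not tested.

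**Figure D3:**
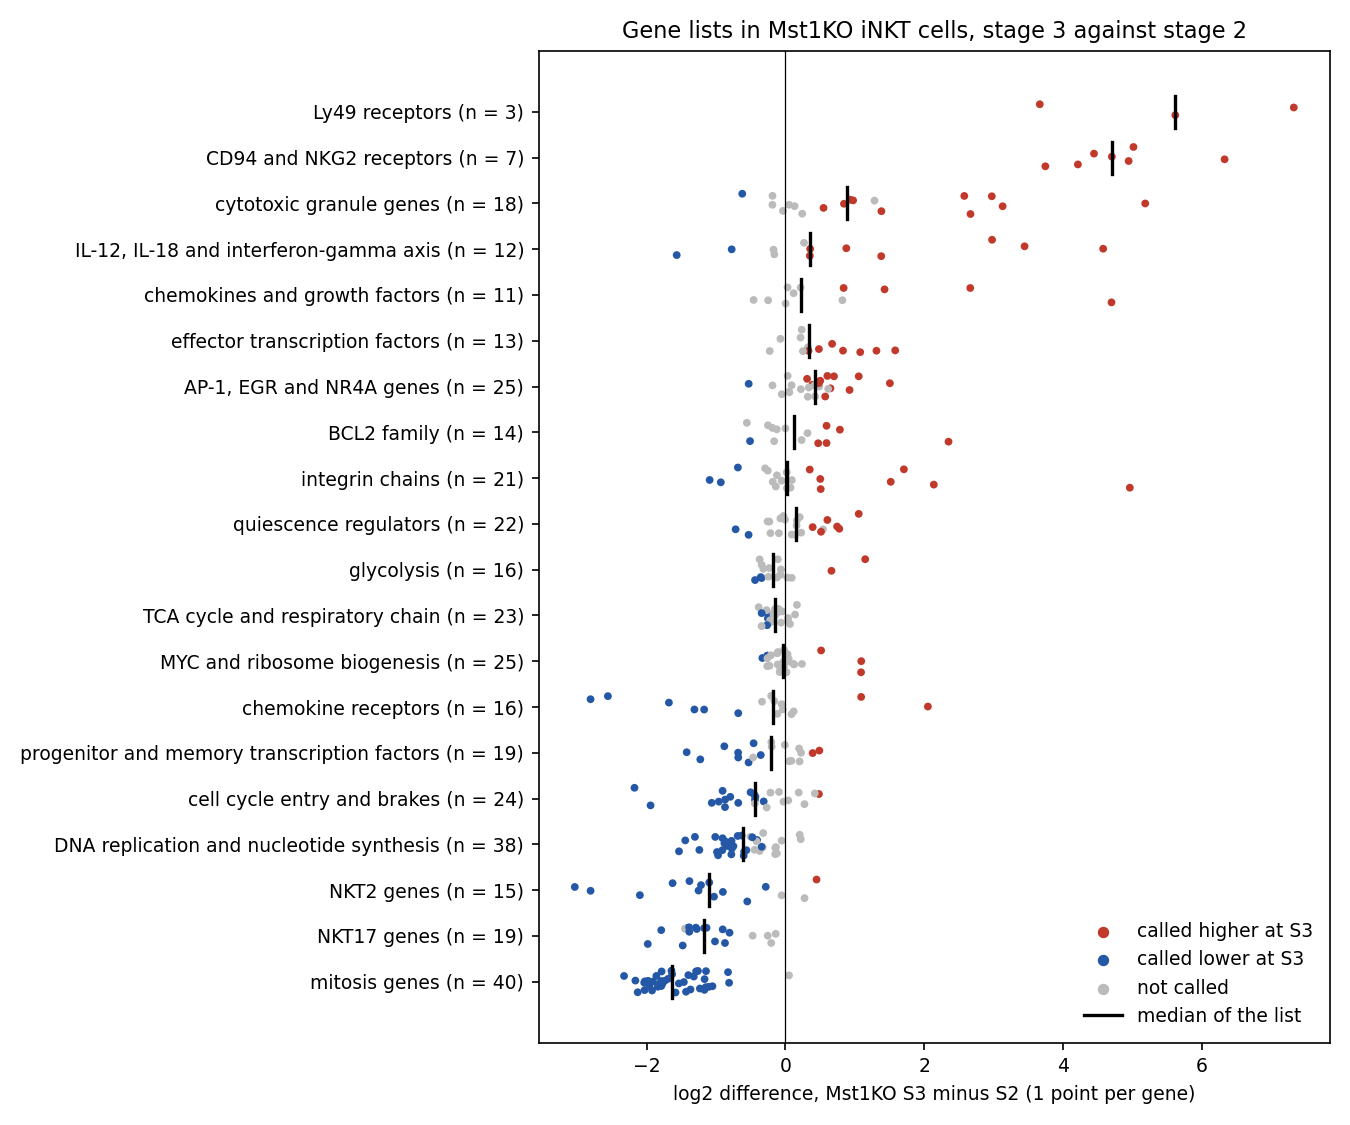
Log2 difference (S3 minus S2, horizontal axis) of every measured gene in 20 gene lists, 1 point per gene, coloured by call, with the list median as a black bar and the number of measured genes beside each name. The Ly49 and the CD94 and NKG2 lists lie wholly to the right, and 39 of 40 mitosis genes lie at the left, while lists such as glycolysis and ribosome biogenesis straddle 0. Genes removed by the filter on low values are not shown.

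Genes of cell division were lower at S3 almost without exception. Of 40 mitosis genes, 39 fell and 1, the securin gene Pttg1 (0.05 ± 0.11), was not called. Their median was -1.64. Kif11, the motor that separates the spindle poles, read 8.68, 9.37 and 9.13 at S2 and 6.29, 6.80 and 7.11 at S3 (-2.32 ± 0.20, adjusted p = 7.03e-07). Cdk1, the kinase that drives entry into mitosis, fell from 8.90, 9.08 and 9.07 to 6.78, 7.03 and 7.30 (-1.98 ± 0.20), and its partner cyclin Ccnb2 by 2.16 ± 0.21. The proliferation marker Mki67 fell by 1.74 ± 0.26 and remained at 8.35, 8.89 and 9.02 on the S3 arrays, well above their medians of 4.84 to 4.91. The first array was the lowest of the 3 for 31 of the 39 genes at S2 and for 29 at S3, yet 38 or 39 of the genes were called lower whichever array was left out.

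DNA replication genes fell less far. Of 38, 25 fell and 13 were not called, with a median of -0.62. Rrm2, a subunit of the enzyme that makes deoxynucleotides, fell from 7.08, 7.39 and 7.48 to 5.46, 5.84 and 6.05 (-1.53 ± 0.26). Cdc6, which loads the replicative helicase, fell by 1.44 ± 0.19 and the helicase subunit Mcm5 by 0.59 ± 0.13. The clamp gene Pcna (-0.12 ± 0.08) and the maintenance methyltransferase gene Dnmt1 (-0.05 ± 0.09) were not called. Of 24 genes for cell cycle entry and its brakes 14 fell and 1 rose. E2f8, a repressor of the E2F family, fell by 2.17 ± 0.22 and the kinase gene Cdk6 by 0.90 ± 0.14, while the cyclin Ccnd3 rose by 0.48 ± 0.09. Among the brakes, Cdkn2c fell by 0.96 ± 0.13, Rb1 by 0.50 ± 0.09, and Cdkn1b, which encodes p27, was not called (-0.03 ± 0.12).

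Promoters of the mitosis genes share letters that the list did not use. The RefSeq windows of 300 bases around a gene start (assembly GRCm38.p6) were searched on both strands for CCAAT and for TTTGAA. The second is the core of the cell cycle homology region. Matches of these strings can share a base, and such overlaps were not excluded. TTTGAA was present for 27 of the 34 mitosis genes with a window (79.4%) against 14.1% of 10213 tested genes. CCAAT was present for 28 (82.4%) against 41.7%, and both for 24 (70.6%) against 5.61%. For the E2F letters TTTCCCGC or TTTGGCGC the share was 31.2% among 32 replication genes and 3.33% among tested genes. These are matches of letters and a description, with no test. The windows of the 4 mitosis genes with the lowest p that hold both are shown up to the base before the start, with CCAAT and TTTGAA, or their reverse complements ATTGG and TTCAAA, in capitals.
Kif11, chr19:37376262-37376381, + strand: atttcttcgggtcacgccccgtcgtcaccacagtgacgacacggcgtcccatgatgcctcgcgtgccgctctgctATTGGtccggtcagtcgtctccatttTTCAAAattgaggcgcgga
Prc1, chr7:80294356-80294475, + strand: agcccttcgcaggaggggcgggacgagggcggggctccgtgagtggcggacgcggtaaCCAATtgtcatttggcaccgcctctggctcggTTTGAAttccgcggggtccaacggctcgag
Ccnb2, chr9:70421555-70421731, - strand: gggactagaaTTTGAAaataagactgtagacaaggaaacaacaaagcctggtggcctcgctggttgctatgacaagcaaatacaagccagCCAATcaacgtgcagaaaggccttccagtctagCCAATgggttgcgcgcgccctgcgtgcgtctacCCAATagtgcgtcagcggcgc
Cdk1, chr10:69352913-69353130, - strand: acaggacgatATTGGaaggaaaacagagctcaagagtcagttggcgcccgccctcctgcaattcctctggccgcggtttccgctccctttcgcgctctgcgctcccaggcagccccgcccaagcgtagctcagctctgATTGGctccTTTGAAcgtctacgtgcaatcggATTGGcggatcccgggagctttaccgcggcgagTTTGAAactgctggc
Ccnb2 holds 3 CCAAT boxes and Cdk1 holds 3 with 2 TTTGAA matches, while Kif11 and Prc1 hold 1 of each.

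Genes linked to quiescence and metabolism moved less. Of 22 quiescence regulators 6 rose and 2 fell, where 8.01% of all genes rose and 9.18% fell. Dusp1, a phosphatase that ends MAP kinase signals, rose from 10.61, 10.55 and 10.65 to 11.65, 11.63 and 11.69 (1.06 ± 0.11). The growth suppressor Ndrg1 rose by 0.78 ± 0.15, with 0.01 ± 0.15 in WT (difference between the genotypes 0.76 ± 0.21, adjusted p = 0.143), the glucose uptake inhibitor Txnip by 0.74 ± 0.14 and the antiproliferative gene Btg2 by 0.60 ± 0.10. Foxo1, a central factor of quiescence and trafficking, fell by 0.53 ± 0.10, and Klf2 was not called (0.54 ± 0.21). Klf4, a growth suppressor in T cells, fell from 7.15, 6.41 and 6.65 to 5.95, 6.10 and 6.01 (-0.72 ± 0.22, adjusted p = 0.033), although the call was lost in 5 of 6 fits without 1 array. In WT it rose by 0.93 ± 0.22, and the difference between the genotypes passed the test (-1.65 ± 0.31, adjusted p = 0.0248).

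In glycolysis, 2 of 16 genes rose, both of them glucose transporters, and 3 fell. Slc2a3 rose by 1.15 ± 0.15 and Slc2a1 by 0.66 ± 0.13, while the enzymes Pgk1 (-0.44 ± 0.10), Pkm (-0.36 ± 0.09) and Pgam1 (-0.34 ± 0.11) fell. Pkm lost its call in 2 and Pgam1 in 5 of 6 fits without 1 array. The count of glycolysis genes called lower was 1 without S3 replicate 1 or S2 replicate 3, and 5 with repeated quantile normalization or array weights. Of 23 genes of the TCA cycle and respiratory chain, 4 were called lower and 0 higher. Of all genes tested 17.2% were called, with 9.18% of all genes lower at S3 and 8.01% higher. Each of the 4 lost its call in at least 4 of 6 fits without 1 array. Of 25 genes for MYC and ribosome biogenesis 3 were called higher and 2 lower, or 20.0%, against 17.2% of all genes. Leaving out any 1 array left 0 or 1 called lower. Myc itself was called higher at 0.51 ± 0.14, a call lost in 4 of 6 such fits, and the genes of its antagonists Mxd1 (1.09 ± 0.16) and Mxd4 (1.09 ± 0.19) rose.

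Immediate early and signal-induced genes were higher in part, 11 of 25 with 1 lower and a median of 0.42. Beside Dusp1, the phosphatase Dusp2 rose by 0.92 ± 0.10 and the NF-kappaB inhibitor Tnfaip3 by 0.70 ± 0.12. Nr4a1, the Nur77 gene induced by TCR signals, fell from 8.98, 9.02 and 9.13 to 8.41, 8.58 and 8.55 (-0.53 ± 0.12), and Egr1 and Fos were not called (-0.05 ± 0.09 and 0.09 ± 0.21). Of 23 proximal TCR signalling genes 6 rose and 1 fell, where 8.01% of all genes rose and 9.18% fell. Those of the list that rose included negative regulators. Ubash3a, a phosphatase that dampens TCR signals, read 4.61, 5.06 and 5.09 and then 7.11, 6.75 and 6.88 (2.0 ± 0.19), Ptpn22 rose by 0.88 ± 0.09, Cblb by 0.63 ± 0.09 and Ptpn6 by 0.55 ± 0.08. Themis, a thymocyte signalling adaptor, fell by 1.38 ± 0.19. The kinase gene Zap70 (-0.08 ± 0.10) and the phospholipase gene Plcg1 (-0.11 ± 0.10) were not called.

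Adhesion and migration genes changed in both directions. Of 21 integrin chains 7 rose, 3 fell and 11 were not called, against 8.01% higher and 9.18% lower over all genes. Itga1, the collagen-binding CD49a chain, read 4.82, 4.99 and 4.98 at S2 and 9.99, 10.01 and 9.68 at S3 (4.96 ± 0.43). Itga2, the CD49b chain, rose by 2.14 ± 0.21, and Itgb1, which pairs with both, by 1.52 ± 0.16. Itga4, the CD49d chain, read 8.96, 9.15 and 9.15 and then 10.71, 10.83 and 10.85 (1.71 ± 0.15), more than in WT, where it rose by 0.65 ± 0.15 (difference between the genotypes 1.05 ± 0.21, adjusted p = 0.0336). Itgae, the CD103 chain that binds E-cadherin, fell from 10.72, 10.42 and 10.35 to 10.04, 9.79 and 9.59 (-0.68 ± 0.15), against 0.39 ± 0.15 in WT (difference -1.08 ± 0.21, adjusted p = 0.0272). Itgb3 fell by 1.09 ± 0.14, against -2.45 ± 0.14 in WT (difference 1.36 ± 0.20, adjusted p = 0.00551). Itgb2, the shared chain of the leukocyte integrins, rose by 0.35 ± 0.08.

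Of 16 chemokine receptors 6 fell and 2 rose, where 9.18% of all genes fell and 8.01% rose. Ccr7, which guides cells to lymph nodes and the thymic medulla, read 7.62, 7.86 and 7.55 at S2 and 5.03, 5.43 and 4.90 at S3 (-2.56 ± 0.20). Ccr9 fell by 1.68 ± 0.16, Ccr10 by 1.31 ± 0.24, Ccr6 by 1.17 ± 0.26 and Ccr2 by 0.68 ± 0.12. Cxcr3, the receptor of interferon-induced chemokines, rose by 1.09 ± 0.16 and Ccrl2 by 2.05 ± 0.24, whereas Cxcr6, a receptor of iNKT cells, was not called (-0.16 ± 0.10). S1pr1, the egress receptor, fell from 9.57, 9.48 and 9.54 to 8.67, 8.73 and 8.96 (-0.74 ± 0.16). In WT it fell further, with -2.49 ± 0.16 (difference 1.75 ± 0.23, adjusted p = 0.00191). S1pr2 rose by 0.69 ± 0.11, and Gpr174, a lysophosphatidylserine receptor, rose from 5.33, 5.88 and 5.66 to 8.56, 8.79 and 8.42 (2.96 ± 0.23). Ccr7, Ccr9, Lef1 and Igfbp4 are also markers of conventional T cells, of which 4 of 7 tested fell and the summed linear level of 9 went from 1991 to 2516 down to 1100 to 1283. Cd8a and Foxp3 were below the array median on all 6 arrays, and the part of such cells in these results was not tested.

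**Figure D4:**
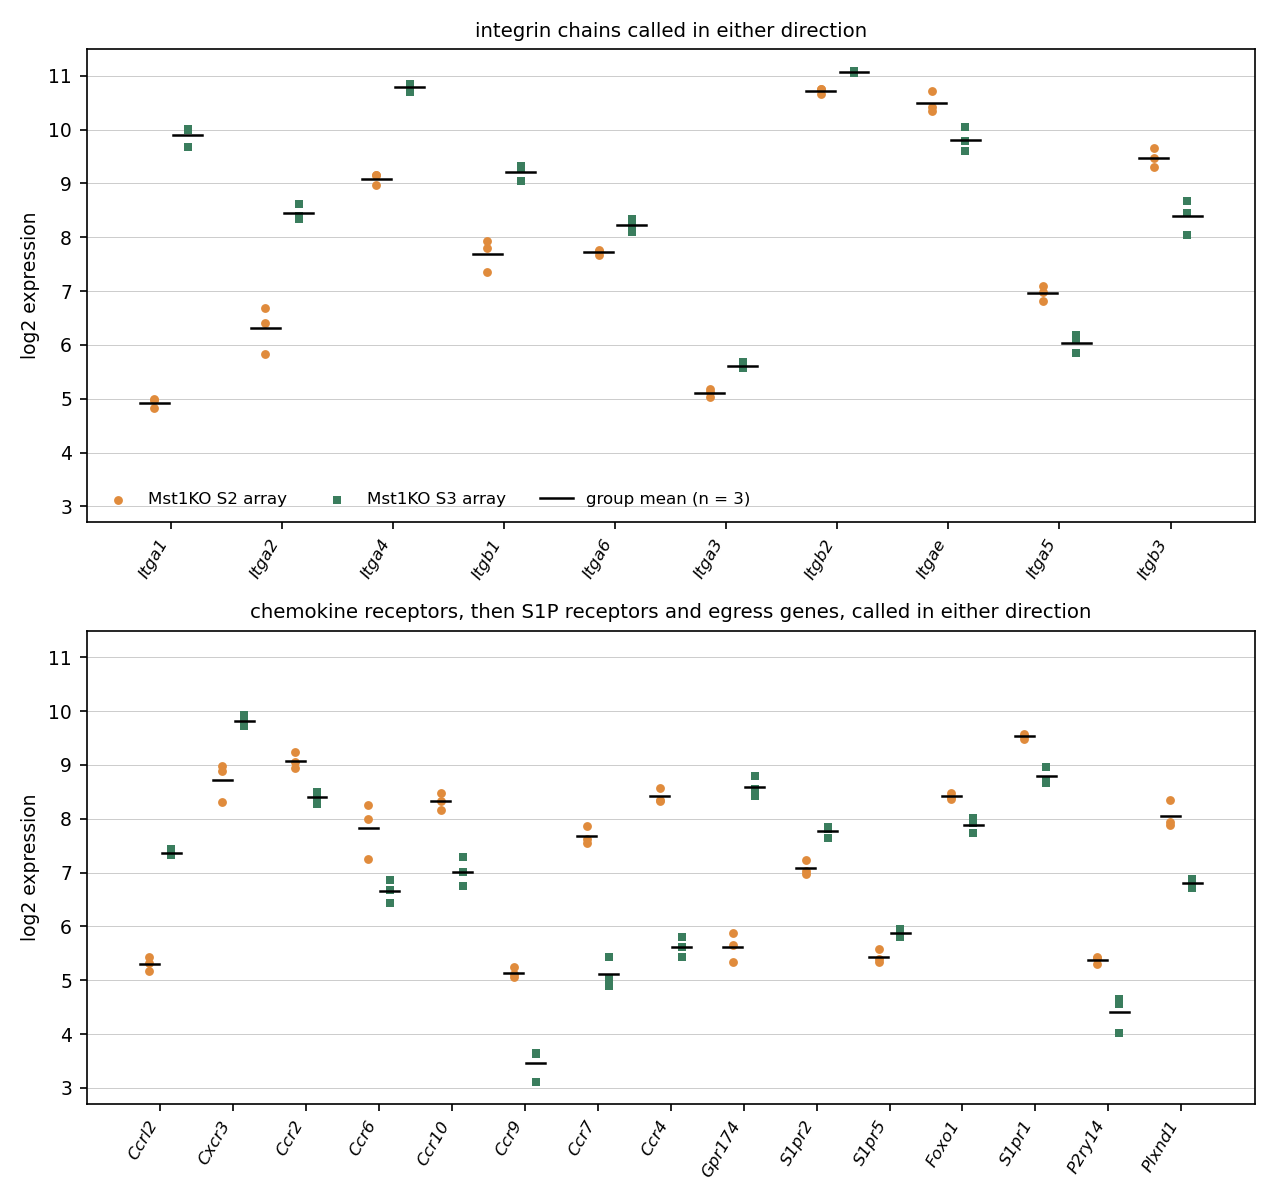
Log2 expression on each Mst1KO S2 array (circles) and S3 array (squares), with group means as bars (n = 3), for called integrin chains (upper panel) and for called chemokine receptors followed by sphingosine phosphate (S1P) receptor and egress genes (lower panel). Itga1 and Gpr174 lie higher at S3 and Ccr7 and Ccr4 lower, each without overlap between the stages.

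Surface receptors that tune activation were mixed. Entpd1, the ectoenzyme CD39, read 4.69, 5.58 and 5.47 at S2 and 7.82, 7.75 and 7.90 at S3 (2.57 ± 0.19), while Nt5e, the CD73 enzyme of the same pathway, fell by 0.90 ± 0.22. Pdcd1, the inhibitory receptor PD-1, fell by 1.6 ± 0.15, Cd200 by 2.01 ± 0.21 and the costimulatory receptor Icos by 1.22 ± 0.10. In the SLAM family, whose signals select iNKT cells, 4 of 8 genes rose, 1 fell and 3 were not called. The 1 that fell was Slamf6, from 11.04, 11.37 and 11.25 to 9.28, 9.98 and 10.25 (-1.38 ± 0.36), opposite to Slamf7. Of 21 genes of the TNF receptor family and its ligands 5 rose, 2 fell and 14 were not called. Tnfrsf18, the GITR gene, rose by 1.21 ± 0.12 and Tnfsf11, the RANKL gene that acts on the thymic medulla, fell by 1.31 ± 0.18. Of 19 TGF-beta and tissue residency genes 6 rose, 3 fell and 10 were not called. Among those that fell, Tgfbr3, the accessory receptor betaglycan, read 7.52, 7.46 and 7.68 and then 6.02, 5.62 and 5.97 (-1.68 ± 0.12). The decrease was larger than in WT (-0.58 ± 0.12, difference -1.11 ± 0.17, adjusted p = 0.00822).

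Of 21 Hippo pathway genes 4 rose, 1 fell and 16 were not called, against 8.01% higher and 9.18% lower over all genes. Ajuba, a LIM protein that restrains LATS kinases, read 5.69, 6.47 and 6.25 at S2 and 7.73, 8.20 and 8.22 at S3 (1.92 ± 0.25). In WT it differed by -0.29 ± 0.25, and the difference between the genotypes was called (2.20 ± 0.35, adjusted p = 0.0106). The scaffold genes Wwc2 and Sav1 rose by 0.95 ± 0.18 and 0.63 ± 0.17, the second with its call lost in 2 of 6 fits without 1 array. Yap1, the coactivator held back by the pathway, was called higher at 0.36 ± 0.11, a call lost in 5 of 6 fits without 1 array. Lats1 was not called (0.25 ± 0.12).

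Among the 12 largest decreases were several genes of other kinds. Pcsk1, a prohormone convertase, read 9.31, 9.71 and 9.20 at S2 and 6.00, 7.25 and 6.79 at S3 (-2.73 ± 0.35). Smtn, a smooth muscle actin-binding protein, fell by 2.60 ± 0.15, Syne1, a nuclear envelope linker, by 2.49 ± 0.29, and Plxdc1 by 2.39 ± 0.12. Dhrs3, a retinal reductase, fell by 2.35 ± 0.26, the mitotic kinase gene Pbk by 2.33 ± 0.25, and the replication-dependent histone gene H2bc12 by 2.47 ± 0.25. Igfbp4, a binding protein of insulin-like growth factors, fell from 8.28, 8.73 and 8.76 to 5.69, 5.79 and 5.83 (-2.82 ± 0.15), and the uncharacterised transcript A530021J07Rik by 2.50 ± 0.26.

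Of 169 microRNA genes tested, 15 were called higher and 7 lower, or 13%, which is below the 17.2% of all genes, and 6 changed at least 2-fold. MicroRNAs silence messengers through pairing with the seed, bases 2 to 8 of the mature strand. A probe set for a microRNA gene on this array does not measure the mature strands separately, and most of these probe sets were dim. For each of these 6 genes, 1 of its 2 RefSeq mature strands is shown (assembly GRCm38.p6, seed in capitals). The choice of strand does not rest on these data. The 6 seeds shown differ from each other.
miR-181b-5p: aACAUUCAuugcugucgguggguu
miR-30e-5p: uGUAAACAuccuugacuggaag
miR-106b-5p: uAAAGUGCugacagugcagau
miR-1933-3p: cCAGGACCaucagugugacuau
miR-23a-3p: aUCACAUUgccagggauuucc
miR-1929-5p: uUCUAGGAcuuuauagagcagag
Mir23a read 5.15, 4.96 and 5.06 at S2 and 6.37, 6.22 and 6.17 at S3 (1.2 ± 0.25). It and Mir1929 kept their calls whichever array was left out. Mir1929 read 5.22, 5.51 and 5.39 and then 6.68, 5.95 and 6.97 (1.16 ± 0.25). It lies within Atg5, which was not called (0.12 ± 0.10), and in WT it fell (-0.99 ± 0.25), a difference between the genotypes that passed the test (2.16 ± 0.35, adjusted p = 0.0114). Mir181b-1, of a family that is abundant in immature thymocytes and needed for iNKT cells, read 5.87, 6.05 and 6.00 and then 2.49, 3.44 and 5.60 (-2.13 ± 0.57). The S3 arrays were spread over 3 units, and the call was lost in 2 of 6 fits without 1 array. Mir106b fell by 1.39 ± 0.43 within the replication gene Mcm7, which also fell (-0.60 ± 0.12), but a single S2 array at 7.70 stood above the other two at 5.90 and 5.93, and the call was lost in 3 of 6 fits without 1 array. Mir30e (1.41 ± 0.45) lost its call in 6 of 6 such fits, and Mir1933 (1.23 ± 0.32) in 1.

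The knockout step was set against the same step in WT, which shares no array with it. In WT 3073 genes (23.6%) were called between S2 and S3. Of the 1044 genes higher in the knockout 698 were also higher in WT, which is 66.9% of the knockout list and 51.5% of the WT list. Of the 1196 lower ones 849 were also lower in WT, 71.0% and 49.4% of the lists. Only 3 genes rose in the knockout and fell in WT, and 1 gene did the reverse. Across genes, which are not independent replicates, the changes correlated at r = 0.812. Of the 689 genes called in the knockout only, the difference between the genotypes itself was called for 6, so most of these are not shown to differ. In all, that difference was called for 48 genes (0.368%), 34 with a knockout change above the WT change and 14 below. At an unadjusted p under 0.05 there were 1464.

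**Figure D5:**
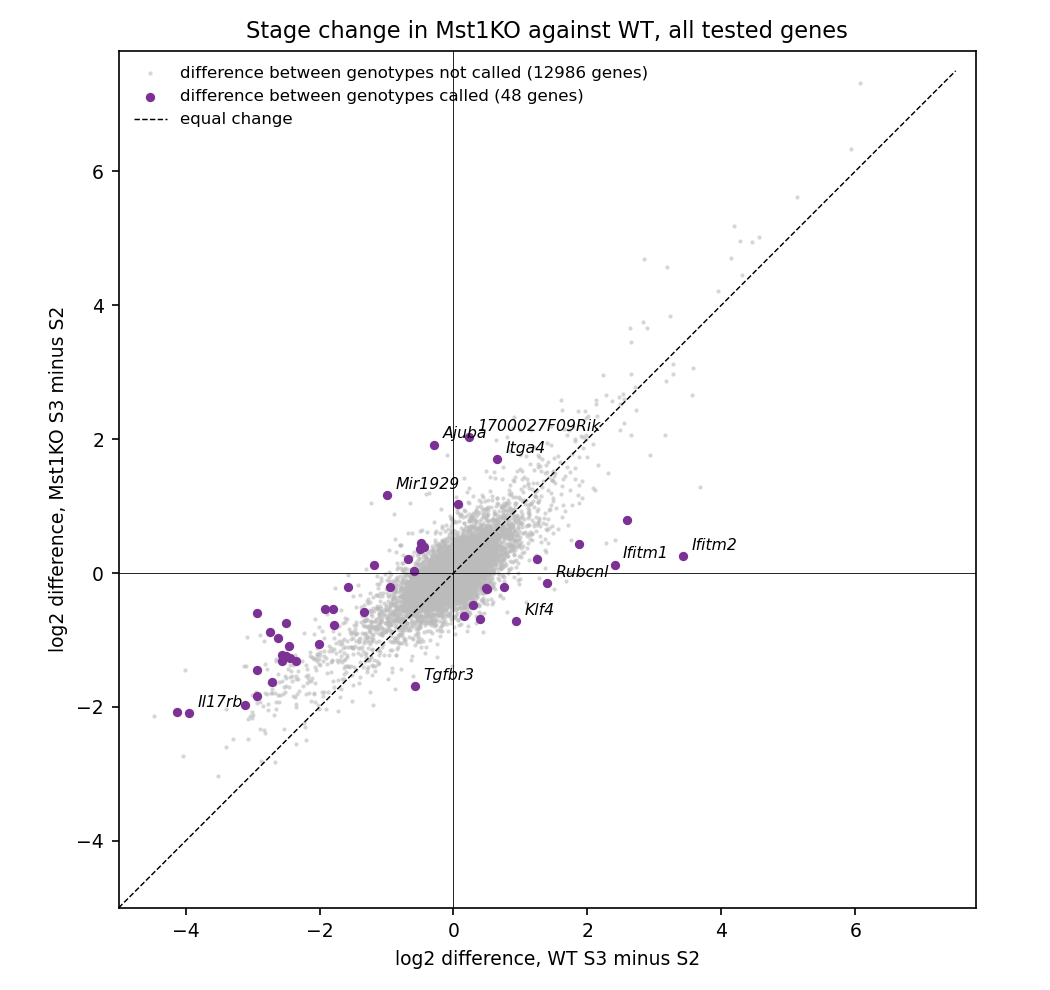
Log2 difference (S3 minus S2) in WT (horizontal axis) and in Mst1KO (vertical axis) for 13034 genes; purple points are the 48 genes whose change differed between the genotypes by limma, and the dashed line marks equal change. Most grey points lie near the line, Ifitm1 and Ifitm2 lie far to its right near 0 on the Mst1KO axis, and Ajuba and 1700027F09Rik lie above it near 0 on the WT axis.

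The genes with the lowest p for a difference between the genotypes were of several kinds. Ifitm1, an interferon-inducible membrane protein gene, stayed dim in the knockout, at 3.95, 3.28 and 3.49 at S2 and 3.68, 3.74 and 3.69 at S3 (0.13 ± 0.17), while it rose by 2.41 ± 0.17 in WT (difference -2.28 ± 0.25, adjusted p = 0.000585). Its neighbour Ifitm2 differed by 0.25 ± 0.37 in the knockout, with overlapping stages, and by 3.43 ± 0.37 in WT (difference -3.18 ± 0.52, adjusted p = 0.0114). Pdlim1, a cytoskeletal LIM protein, fell from 8.88, 9.01 and 9.01 to 7.52, 7.53 and 7.51, a difference of -1.45 ± 0.12 against -2.94 ± 0.12 in WT. Myb, a factor of progenitors and cycling cells, fell from 8.75, 8.69 and 8.73 to 7.67, 7.83 and 8.03 (-0.88 ± 0.15), against -2.74 ± 0.15 in WT. Il17rb, the IL-25 receptor chain of NKT2 cells, fell from 10.998, 11.02 and 10.94 to 8.62, 9.17 and 8.89 (-2.10 ± 0.18), against -3.95 ± 0.18 in WT, and Irf4 differed by -1.63 ± 0.13 against -2.72 ± 0.13. Rubcnl, an autophagy regulator, was not called in the knockout (-0.15 ± 0.13) and rose in WT (1.39 ± 0.13). The transcript 1700027F09Rik rose in the knockout from 2.96, 3.15 and 3.51 to 5.57, 5.23 and 4.91 and was not called in WT (0.23 ± 0.19). Its knockout S2 values lay below the array medians of 4.83 to 4.87, close to background. The lowest S3 value was near the S3 medians of 4.84 to 4.91, so its difference is not an exact ratio. For mitosis genes the WT median was -2.40 and the knockout median -1.64, and the difference was called for 1 of the 40, Hmmr (-1.23 ± 0.18 against -2.51 ± 0.18). The number of genes with a called difference was 15 in a fit of only the groups compared, 1 with a minimum of 1.5-fold, and between 25 and 93 when 1 array was left out.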

How the data were processed

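MoGene-2_0 arrays were deposited as log2 values for each probe set. The submitters' processing notes name RMA and Affymetrix Expression Console 1.1 for the authors' processing. This method corrects background, normalizes arrays to each other and combines probes, so dim genes are compressed. Probe sets with 1 symbol in the platform annotation, above their array's median on at least 3 of 18 arrays, were kept, and the brightest stood for each gene (13034 genes). limma 3.58.1 in R 4.3.3 fitted the 6 group means to all 18 arrays. Benjamini-Hochberg adjustment covered all genes tested, with a threshold of 0.05. The change between stages was compared between genotypes as an interaction in the same fit. The test was checked on simulated data.

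Named were Stk4 and the gate genes, the called genes without overlap that rose most (12) or fell most (12), members of each list with the lowest p and any other member given with its values, the 8 genes with the lowest interaction p, and microRNA genes changed at least 2-fold. Genes of the chromosome 6 run were named after their values were seen. Members and lists were chosen with earlier results of these data known, and no list was tested as a set. RefSeq tables (GRCm38.p6) gave sequences and neighbours. The alternatives tried are in the closing section. Figures used Python 3.11.15, pandas 2.3.3 and matplotlib 3.10.9.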

Additional observations from a re-analysis of the deposited data

Results flagged for a closer look

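For 18 genes named above the change from S2 to S3 differed between Mst1KO and WT by limma's interaction, and each is given as the knockout change minus the WT change (log2) with Benjamini-Hochberg adjustment. The knockout change was above the WT change for Ajuba (2.20), Mir1929 (2.16), Myb (1.87), Il17rb (1.86), 1700027F09Rik (1.80), S1pr1 (1.75), Pdlim1 (1.49), Itgb3 (1.36), Hmmr (1.27), Irf4 (1.09), Itga4 (1.05) and Izumo1r (0.94). It was below the WT change for Ifitm2 (-3.18), Ifitm1 (-2.28), Klf4 (-1.65), Rubcnl (-1.54), Tgfbr3 (-1.11) and Itgae (-1.08). In Myb, Il17rb, S1pr1, Pdlim1, Itgb3, Irf4 and Hmmr the difference is a smaller decrease in the knockout, and in Itga4 it is a larger increase. Izumo1r and Mir1929 rose in the knockout and fell in WT, and Klf4 did the reverse. The knockout S2 level of 1700027F09Rik was below the array medians, close to background.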

How the results depend on the processing

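The count of genes called between S2 and S3 in the knockout was 1952 with no filter, 2053 with a filter at the 75th percentile, 2443 with quantile normalization repeated, 2133 with median centring, 2405 with a variance trend and robust fit, 2625 with array weights, 2213 with the mean of probe sets and 1999 in a fit of only the groups compared. With a minimum change of 1.5-fold it fell to 327, of which 143 were higher and 184 lower. Leaving out 1 array gave 1547 to 1859 genes, 724 to 895 higher and 823 to 1005 lower. Repeated quantile normalization gave 36.0% of called genes higher, and median centring 40.9%. The count of genes whose change differed between genotypes was 15 in a fit of only the groups compared, 1 with the minimum change, 25 without S3 knockout replicate 3 and 93 without WT S3 replicate 3. The cause was not tested. The replicate numbers were not used as pairs: deviations of same-numbered knockout arrays correlated at 0.12, 0.051 and 0.083, each the highest for its S2 array. With the replicate number as a block 2244 genes were called between stages, 2060 of them shared with the 2240, and 63 for the difference between genotypes. Of the genes named, the block added the calls of Gzma (limma's adjusted p = 0.0336, against 0.0529 without it) and Clec2i (0.031) and ended those of Bid (0.0532), Blk (0.0552) and Mir30e (0.0756). Runx3, Slamf6, Nt5e, C1qa and Mir1933 lost their calls in 1 of 6 fits without 1 array.

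Genes that changed sign were uncalled and near 0. Pttg1 was -0.018 with quantile normalization repeated and Cdkn1b 0.027 with array weights. Leaving out 1 array gave ranges of -0.019 to 0.31 for Ifitm1, -0.13 to 0.058 for Cdkn1b, -0.16 to 0.014 for Dnmt1, -0.034 to 0.18 for Fos, -0.095 to 0.77 for Ifitm2 and -0.17 to 0.26 for Ncr1. Genes below the array medians, such as Klrc3 and 1700027F09Rik at S2, are limited by background.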

Other observations

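Probe sets outside the gene table were fitted apart, and smaller shares of them were called than the 17.2% of genes in the table. Of 1021 probe sets annotated with several symbols 140 (13.7%) were called by limma, 65 higher and 75 lower at S3, adjusted over that class. Those shared by Ly49 genes were among them: the probe set of Klra10 and Klra3 differed by 3.94 ± 0.26 and that of Klra3 and Klra9 by 3.51 ± 0.38. A probe set shared by H2bc histone genes differed by -1.47 ± 0.16, and one shared by H2ac histone genes by -2.45 ± 0.29. Of 8443 probe sets with no symbol 99 (1.17%) were called, 60 higher and 39 lower.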
